A study of Mus musculus with 12 samples.

Results

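The 36 genes described here code for the enzymes of glycolysis, the enzymes that store and release glycogen, and the carriers that move glucose and lactate across membranes. The set is a list of gene names, and all 36 were found among the 55416 gene identifiers of the mouse files. RNA was sequenced from the gastrocnemius, a calf muscle, and from the hypothalamus of 6 male BALB/c mice aged 7 weeks at the start. The 3 cachectic mice had received CT-26 murine colon carcinoma cells under the skin of the abdomen, and by day 10 such mice weighed 7 to 10% less than healthy ones; their tissues were taken on day 25. The 3 normal mice had no tumor injection, and the day on which their tissues were taken is not given. Each mouse gave 1 library of each tissue, so that 12 libraries formed 4 groups of 3, and the comparisons asked which of these genes differed in cachectic mice within each tissue. CT-26 is an established line grown from a chemically induced colon tumor of a BALB/c mouse, so every tumor came from a single cell line. Cachexia is the loss of body weight, muscle and fat that accompanies some cancers.

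Glycolysis splits glucose into pyruvate and yields ATP without oxygen, and fast muscle fibres lean on it during short bursts of work. Those fibres also hold glycogen, a branched store of glucose, which phosphorylase breaks down once phosphorylase kinase has activated it in response to calcium or adrenaline. Most steps are carried out by families of paralogues, of which skeletal muscle uses its own members, while brain uses more widely expressed ones and receives its glucose mainly through the carrier GLUT1 of the blood-brain barrier.

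Library totals ran between 26015741 and 52535761 expected counts, and Acta1, Ckm and Mylpf in muscle, like Snap25 in the hypothalamus, matched the tissue labels. In the gastrocnemius the summed CPM (a gene's count relative to its library's total, scaled between libraries by the TMM method throughout) of 5 skeletal muscle markers ran between 59976 and 109313 in cachectic mice, against 113668 to 152360 in normal mice. The summed CPM of 5 erythroid markers there was 806 to 844 in cachectic mice and 198 to 433 in normal mice, and that of 9 neutrophil markers was 19.9 to 137 in cachectic mice and 0.438 to 0.853 in normal mice. Fibroblast markers summed to 312 to 411 CPM in cachectic muscle, against 715 to 1129 CPM in normal muscle, and adipocyte markers to 12.6 to 17.9 CPM in cachectic muscle, against 65.7 to 85.6 CPM in normal muscle. Genes of the mitochondrial genome took 8.26 to 11.1% of counts in cachectic muscle, against 13.5 to 19.7% in normal muscle. Cachectic mouse 2 stood apart from the other two cachectic muscles, with Myh4, the myosin heavy chain of fast IIB fibres, at 49986 CPM, against 20861 CPM in mouse 1 and 14053 CPM in mouse 3. The part of these shifts in the results below was not tested, and in bulk tissue fewer cells of a type cannot be told apart from less RNA per cell.

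In normal mice the muscle and brain forms of the same enzymes differed in TPM (a transcript level per length, relative to the library) by up to 3 orders of magnitude. Aldoa, the muscle aldolase, was the most abundant member in normal gastrocnemius, at a mean of 14824 TPM, against 1140 TPM in normal hypothalamus. Gapdh, glyceraldehyde-3-phosphate dehydrogenase, averaged 13279 TPM in normal gastrocnemius and led the members of normal hypothalamus with 3052 TPM. Pygm, the muscle glycogen phosphorylase, ranked next in muscle with a mean of 3239 TPM, against 19.3 TPM in hypothalamus.

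Pgam2, the muscle phosphoglycerate mutase, showed the widest ratio towards muscle, at 2688 TPM in gastrocnemius against 1.93 TPM in hypothalamus, 1395 times as much. Eno3, the muscle enolase, averaged 2801 TPM in gastrocnemius against 7.10 TPM in hypothalamus. Aldoc, the brain aldolase, leaned furthest the other way, with 0.430 TPM in gastrocnemius against 541 TPM in hypothalamus, followed by the neuronal enolase Eno2 with 0.627 TPM in gastrocnemius against 484 TPM in hypothalamus. Gpi1, glucose-6-phosphate isomerase, came close to even, with 741 TPM in gastrocnemius and 586 TPM in hypothalamus. All 36 genes together took 4.18 to 6.42% of TPM in cachectic gastrocnemius, against 3.72 to 5.01% in normal gastrocnemius, so these ranges overlapped.

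**Figure D1:**
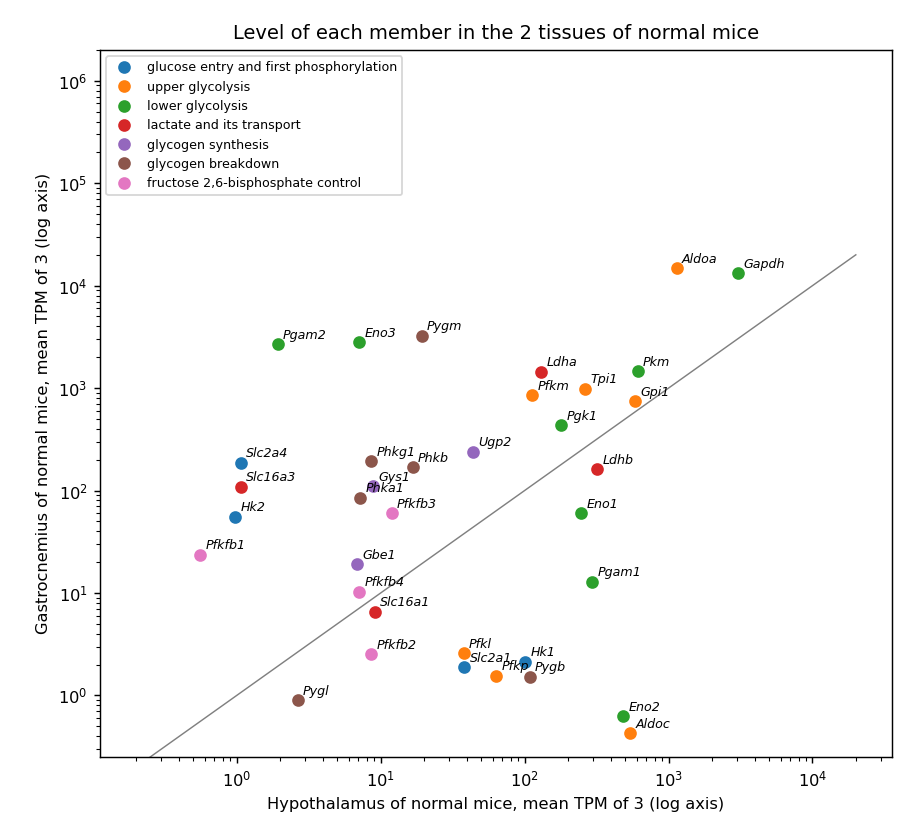
Mean TPM of each of the 36 genes in normal hypothalamus (horizontal, log axis) and normal gastrocnemius (vertical, log axis), 3 mice a tissue, coloured by role; the grey line marks equal levels. Pgam2 lies furthest above the line (2688 TPM in gastrocnemius, 1.93 TPM in hypothalamus) and Aldoc furthest below it (0.430 TPM in gastrocnemius, 541 TPM in hypothalamus).

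In cachectic gastrocnemius all 3 member genes of glycogen synthesis rose, while the 3 phosphorylase kinase genes and 5 of 8 genes of lower glycolysis fell. Of the 36 genes, 4 rose, namely Ugp2, Gbe1, Gys1 and Gpi1, and 13 fell, led by Phkg1, Pgam2, Phka1, Tpi1, Phkb and Pkm, with 19 not called. Calls rest on edgeR's quasi-likelihood test with a threshold of 0.05 on p-values adjusted over all 14265 genes tested, all 36 members among them. Of these genes 19.6% were called higher and 18.3% lower, 38.0% in all. The members thus stood at 11.1% higher and 36.1% lower, and their median log2 change was -0.40, against -0.0015 over all genes tested. With Pygb, 4 of 6 genes of glycogen breakdown fell. Of the 17 calls, 10 held under all 16 alternative treatments of the data: Ugp2, Gbe1, Gys1, Tpi1, Pgk1, Pgam2, Eno3, Pkm, Phka1 and Phkb.

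The split between higher and lower depended on the unit. With limma on log2(TPM + 0.5), in which the median change of all genes stood at 0.35, 6 members were called higher and 8 lower, and of all genes 4249 were called higher and 799 lower. The 8 that fell on both scales were Tpi1, Pgk1, Pgam2, Eno3, Pkm, Phka1, Phkb and Phkg1. Slc2a1 and Slc2a4 were called higher with TPM but not in the edgeR fit of the 6 muscle libraries. With counts Slc2a1 was called without cachectic mouse 2, where its log2 change was 0.73 (edgeR adjusted p = 0.00837), and in a fit of all 12 libraries, where it was 0.52 (edgeR adjusted p = 0.0357). The groups did not overlap, with cachectic mice higher, for 4 members in CPM (26.3% of all genes tested) and 9 in TPM (40.9%), and with cachectic mice lower for 14 members in CPM (25.3%) and 7 in TPM (10.4%). With library totals in place of TMM, which put the median change of all genes at 0.20, 4 members were called higher and 11 lower, and of all genes 3957 higher and 1662 lower. No called member changed sign under any alternative.

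**Figure D2:**
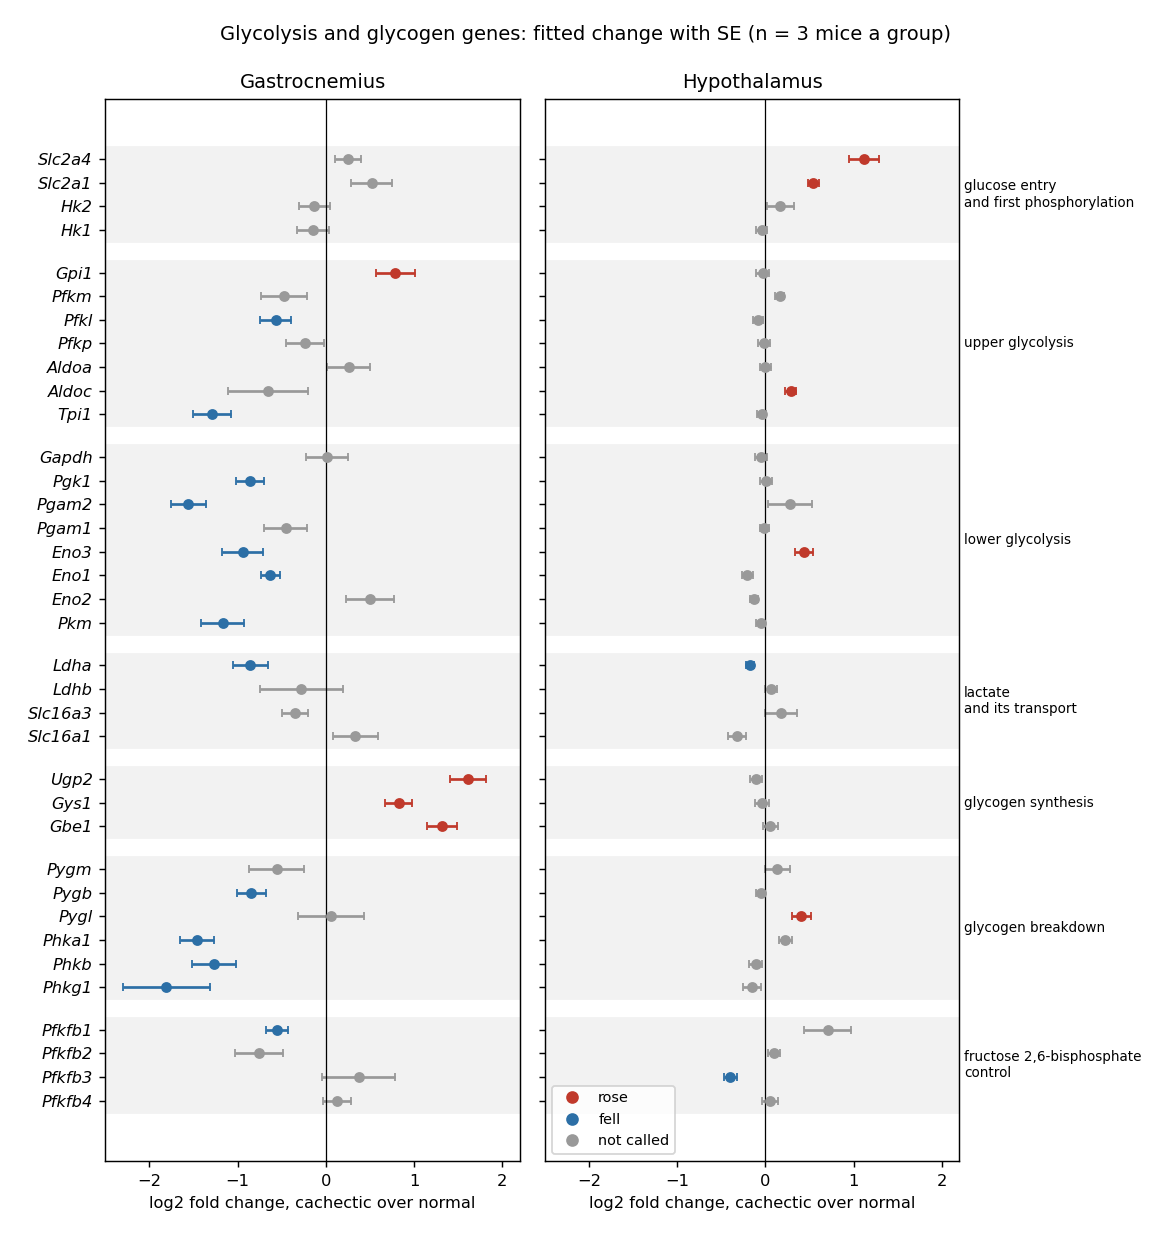
Fitted log2 fold change of each gene, cachectic over normal (horizontal), with its standard error, in gastrocnemius (left) and hypothalamus (right), 3 mice a group, grouped by role; red genes rose, blue genes fell and grey genes were not called. In gastrocnemius all 3 glycogen synthesis genes lie to the right of 0 and 4 of 6 glycogen breakdown genes are called to the left.

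The glycogen synthesis genes had the clearest increase. Ugp2 makes UDP-glucose, the sugar donor for glycogen, and stood at 1776, 1661 and 1599 CPM in cachectic mice 1 to 3, against 482, 461 and 709 CPM in normal mice 1 to 3. Gbe1, the branching enzyme, stood at 101, 80.5 and 101 CPM in cachectic mice, against 32.5, 34.8 and 45.8 CPM in normal mice. Gys1, the muscle glycogen synthase that extends the chains, had 784, 599 and 655 CPM in cachectic mice, against 363, 388 and 399 CPM in normal mice. For each of these genes every cachectic muscle lay above every normal one. Ugp2 rose by 1.61 ± 0.20 on the log2 scale (SE, edgeR adjusted p = 0.000895), Gbe1 by 1.32 ± 0.17 (edgeR adjusted p = 0.000891) and Gys1 by 0.83 ± 0.15 (edgeR adjusted p = 0.00423).

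Phosphorylase kinase moved the other way. This kinase switches phosphorylase on, and its muscle form is built of an alpha subunit (Phka1), a beta subunit (Phkb), the catalytic gamma subunit (Phkg1) and calmodulin. Phka1 had 154, 254 and 186 CPM in cachectic mice, against 538, 582 and 515 CPM in normal mice. Phkb had 158, 276 and 148 CPM in cachectic mice, against 492, 510 and 404 CPM in normal mice. The values of Phkg1 were 57.01, 207 and 52.2 CPM in cachectic mice, against 367, 419 and 318 CPM in normal mice.

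All 3 subunit genes separated the groups, with cachectic mouse 2 the highest of its group for each. Phka1 fell by 1.46 ± 0.20 on the log2 scale (SE, edgeR adjusted p = 0.00115), Phkb by 1.27 ± 0.25 (edgeR adjusted p = 0.00537) and Phkg1 by 1.81 ± 0.50 (edgeR adjusted p = 0.0217). The Phkg1 call was lost without cachectic mouse 1 (adjusted p = 0.0683), cachectic mouse 3 (adjusted p = 0.0557), normal mouse 1 (adjusted p = 0.0552) or normal mouse 2 (adjusted p = 0.0570).

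Of the phosphorylases themselves, which free glucose 1-phosphate from glycogen, Pygm had 4338, 7934 and 3589 CPM in cachectic mice, against 7406, 9113 and 6808 CPM in normal mice, and the groups overlapped because of cachectic mouse 2. Its log2 change of -0.56 was not called (edgeR adjusted p = 0.193); without cachectic mouse 2 it was -0.98 (edgeR adjusted p = 0.00933). Pygb, the brain form, was scarce in muscle at 2.80, 2.52 and 2.54 CPM in cachectic mice, against 4.86, 5.06 and 4.23 CPM in normal mice. These groups did not overlap, and Pygb fell by 0.84 ± 0.16 on the log2 scale (SE, edgeR adjusted p = 0.00517), a call lost on the TPM scale (limma adjusted p = 0.583). Pygl, the liver form, had 3.58, 1.20 and 1.76 CPM in cachectic mice and 1.94, 1.98 and 2.49 CPM in normal mice, and was not called.

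Lower glycolysis turns glyceraldehyde 3-phosphate into pyruvate. Pgam2, which moves the phosphate of phosphoglycerate, stood at 474, 708 and 662 CPM in cachectic mice, against 1667, 1943 and 1821 CPM in normal mice. Pkm, pyruvate kinase and the last step, stood at 1154, 2015 and 1208 CPM in cachectic mice, against 3311, 3562 and 2975 CPM in normal mice. Both genes separated the groups, and Pgam2 fell by 1.56 ± 0.19 (SE, edgeR adjusted p = 0.000852) and Pkm by 1.17 ± 0.25 (edgeR adjusted p = 0.00743) on the log2 scale. Eno3, which forms phosphoenolpyruvate in muscle, had 1453, 2428 and 1623 CPM in cachectic mice, against 3589, 3776 and 3227 CPM in normal mice. Pgk1, phosphoglycerate kinase, had 352, 481 and 419 CPM in cachectic mice, against 804, 757 and 712 CPM in normal mice.

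Neither gene had a cachectic muscle within the normal range in CPM, and Eno3 fell by 0.94 ± 0.23 (SE, edgeR adjusted p = 0.0133) and Pgk1 by 0.86 ± 0.16 (edgeR adjusted p = 0.00440) on the log2 scale. In TPM cachectic mouse 2 had 2305 TPM of Eno3, within the normal range of 2251 to 3090 TPM. Eno1, the widespread enolase, had 49.7, 48.8 and 52.8 CPM in cachectic mice, against 75.4, 81.6 and 76.8 CPM in normal mice. It fell by 0.63 ± 0.11 on the log2 scale (SE, edgeR adjusted p = 0.00312), and the call was lost with TPM (limma adjusted p = 0.139). Near-identical gene copies held 28.1 to 34.9% of the summed counts of Eno1 and those copies, and summing them left its log2 change at -0.62 (edgeR adjusted p = 0.00366).

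The 3 other genes of lower glycolysis were not called. Gapdh, often used as a reference in muscle assays, had 8347, 12079 and 7909 CPM in cachectic mice, against 8664, 10355 and 9103 CPM in normal mice, with the normal range inside the cachectic one. Of the summed counts of Gapdh and its 90 near-identical annotated copies, the copies held 23.8 to 26.4% in gastrocnemius. Pgam1, the widespread mutase, had 15.6, 11.5 and 21.1 CPM in cachectic mice and 19.6, 18 and 28.6 CPM in normal mice. Eno2 had 2.39, 1.78 and 2.36 CPM in cachectic mice and 1.72, 1.03 and 1.88 CPM in normal mice. For both the groups overlapped in CPM. In TPM Eno2 was higher in each cachectic mouse, at 0.88 to 1.44 TPM, against 0.48 to 0.78 TPM in normal mice.

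Upper glycolysis turns glucose 6-phosphate into a pair of triose phosphates, and its genes were mixed. Tpi1, triose-phosphate isomerase, stood at 444, 762 and 514 CPM in cachectic mice, against 1464, 1387 and 1356 CPM in normal mice, and fell by 1.29 ± 0.22 on the log2 scale (SE, edgeR adjusted p = 0.00292). Gpi1 stood at 1882, 2387 and 1357 CPM in cachectic mice, against 1024, 1187 and 1050 CPM in normal mice. Neither gene's groups overlapped, and Gpi1, which draws glucose 6-phosphate into glycolysis, rose by 0.79 ± 0.22 (SE, edgeR adjusted p = 0.0243). Its call was lost without cachectic mouse 1 or any 1 of the 3 normal mice, with an adjusted p of up to 0.0931.

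Phosphofructokinase sets the pace of glycolysis, and its muscle gene Pfkm had 1421, 2526 and 1317 CPM in cachectic mice, against 2516, 2482 and 2323 CPM in normal mice. Cachectic mouse 2 lay above all normal mice and the other cachectic mice below them. The log2 change of Pfkm was -0.48 (edgeR adjusted p = 0.181), and without cachectic mouse 2 it was -0.84 (edgeR adjusted p = 0.00567). Pfkl, the liver form, had 5.70, 4.34 and 6.67 CPM in cachectic mice, against 7.85, 8.14 and 8.89 CPM in normal mice. It fell by 0.57 ± 0.18 on the log2 scale (SE, edgeR adjusted p = 0.0350), the least stable call in muscle, lost in 8 of 16 alternatives, among them leaving out any 1 library other than cachectic mouse 3 (adjusted p of up to 0.0974) and the TPM scale (limma adjusted p = 0.323). Pfkp, the platelet form, had 4.96, 3.25 and 4.63 CPM in cachectic mice and 4.02, 5.50 and 5.69 CPM in normal mice, and overlapped.

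Neither aldolase, which splits fructose 1,6-bisphosphate, was called. Aldoa had 16937, 24157 and 16425 CPM in cachectic mice, against 15790, 17044 and 15236 CPM in normal mice, and Aldoc had 0.381, 0.542 and 0.478 CPM in cachectic mice and 0.621, 1.21 and 0.355 CPM in normal mice. In TPM Aldoa was higher in each cachectic mouse, at 17684 to 26349 TPM, against 12435 to 16267 TPM in normal mice. Ldha, the lactate dehydrogenase subunit of fast muscle, had 965, 1465 and 1097 CPM in cachectic mice, against 2269, 2223 and 1888 CPM in normal mice. Its groups did not overlap, and it fell by 0.86 ± 0.20 on the log2 scale (SE, edgeR adjusted p = 0.0119), a call lost with TPM (limma adjusted p = 0.0764). Ldhb, the heart form, spread widely, at 141, 73.8 and 217 CPM in cachectic mice and 120, 104 and 301 CPM in normal mice.

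Lactate leaves fast fibres through MCT4, coded by Slc16a3, and is taken up through MCT1, coded by Slc16a1. Slc16a3 had 184, 187.9 and 155 CPM in cachectic mice, against 246, 238 and 188 CPM in normal mice, and was not called (edgeR adjusted p = 0.102). Cachectic mouse 2 lay only just below normal mouse 3. In TPM the groups overlapped, at 89.5 to 125.4 TPM in cachectic mice and 79.8 to 131.5 TPM in normal mice. Slc16a1 had 46.2, 27.6 and 42.7 CPM in cachectic mice, against 26.7, 23.9 and 42.1 CPM in normal mice, and overlapped.

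None of the 4 genes of glucose entry and first phosphorylation was called in muscle. Slc2a4 codes for GLUT4, the insulin-responsive carrier of muscle, and had 553, 451 and 578 CPM in cachectic mice, against 450, 417 and 463 CPM in normal mice, with cachectic mouse 2 inside the normal range. On the TPM scale it stood at 326, 222 and 280 TPM in cachectic mice, against 198, 179 and 183 TPM in normal mice, without overlap, and was called higher (limma adjusted p = 0.0366). Slc2a1, coding for GLUT1, had 9.11, 4.80 and 8.13 CPM in cachectic mice, against 5.59, 4.98 and 4.90 CPM in normal mice, and was likewise called on the TPM scale (limma adjusted p = 0.0379). The hexokinases trap glucose as glucose 6-phosphate. Hk2, the muscle form, ran between 230 and 330 CPM in cachectic mice and between 261 and 328 CPM in normal mice, and Hk1, the brain form, between 6.04 and 8.89 CPM in cachectic mice and between 7.84 and 9.84 CPM in normal mice.

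The PFKFB enzymes make and remove fructose 2,6-bisphosphate, the activator of phosphofructokinase. Pfkfb1, the muscle and liver form, had 22.7, 26.0 and 28.5 CPM in cachectic mice, against 35.3, 37.9 and 40.0 CPM in normal mice, and fell by 0.55 ± 0.13 on the log2 scale (SE, edgeR adjusted p = 0.0101). On the TPM scale its change of -0.08 was not called (limma adjusted p = 0.699). Pfkfb2, Pfkfb3 and Pfkfb4 overlapped between groups in CPM. In TPM Pfkfb4 was higher in each cachectic mouse, at 13.2 to 16 TPM, against 8.12 to 13.03 TPM in normal mice. Pfkfb3, an inducible form, had 321, 510 and 225 CPM in cachectic mice and 203, 452 and 161 CPM in normal mice. Pfkfb2, known from heart, had 4.998, 4.72 and 5.41 CPM in cachectic mice and 8.14, 5.35 and 12.2 CPM in normal mice, and Pfkfb4, known from testis, had 26.2, 34.3 and 29.2 CPM in cachectic mice and 32.8, 25.1 and 24.0 CPM in normal mice. The log2 change of Pfkfb2 was -0.76 (edgeR adjusted p = 0.0555). It was called lower in 5 of 16 alternatives, among them DESeq2 (adjusted p = 0.0272).

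**Figure D3:**
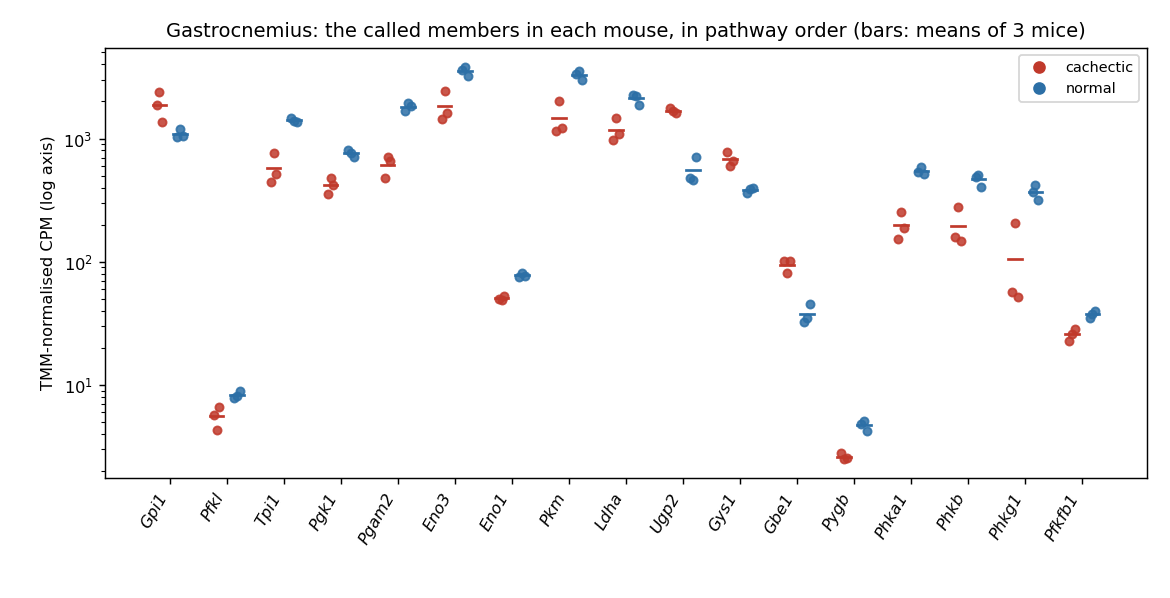
TMM-normalised CPM (log axis) of the 17 called genes in each gastrocnemius, in pathway order, with cachectic mice in red, normal mice in blue and bars at the means of 3 mice. For all 17 genes the groups do not overlap; the highest cachectic point of Phkg1, at 207 CPM, is mouse 2.

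The stretches before the transcription starts of 5 of these genes are shown: the 3 glycogen synthesis genes, which rose, and the muscle paralogues Pgam2 and Eno3, which fell. Each line gives the 250 bases upstream of the start on the gene's own strand, from RefSeq on GRCm38.p6, with capitals marking E-boxes (CANNTG, which reads alike on both strands), the letters that muscle bHLH factors such as MyoD bind. The stretches are chr11:21371268-21371517 on the minus strand for Ugp2, chr7:45434589-45434838 on the plus strand for Gys1, chr16:70313699-70313948 on the plus strand for Gbe1, chr11:5803797-5804046 on the minus strand for Pgam2 and chr11:70656926-70657175 on the plus strand for Eno3.
Ugp2: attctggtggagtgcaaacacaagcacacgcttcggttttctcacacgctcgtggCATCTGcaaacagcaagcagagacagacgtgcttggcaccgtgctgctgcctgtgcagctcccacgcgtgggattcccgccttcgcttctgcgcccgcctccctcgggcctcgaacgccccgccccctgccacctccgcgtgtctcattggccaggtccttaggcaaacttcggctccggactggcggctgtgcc
Gys1: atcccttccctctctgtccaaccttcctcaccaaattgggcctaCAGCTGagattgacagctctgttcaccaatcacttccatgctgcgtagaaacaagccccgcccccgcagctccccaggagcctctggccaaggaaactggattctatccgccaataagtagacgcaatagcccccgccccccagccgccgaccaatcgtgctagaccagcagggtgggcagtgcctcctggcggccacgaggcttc
Gbe1: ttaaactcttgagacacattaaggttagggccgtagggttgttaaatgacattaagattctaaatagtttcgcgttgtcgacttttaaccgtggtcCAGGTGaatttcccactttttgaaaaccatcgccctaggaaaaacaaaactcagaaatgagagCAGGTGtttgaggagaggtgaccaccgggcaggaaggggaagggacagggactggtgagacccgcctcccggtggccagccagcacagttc
Pgam2: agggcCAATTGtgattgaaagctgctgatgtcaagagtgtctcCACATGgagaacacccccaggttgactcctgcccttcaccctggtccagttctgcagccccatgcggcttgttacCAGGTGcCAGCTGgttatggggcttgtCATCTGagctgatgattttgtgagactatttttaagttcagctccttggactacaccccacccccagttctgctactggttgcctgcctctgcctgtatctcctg
Eno3: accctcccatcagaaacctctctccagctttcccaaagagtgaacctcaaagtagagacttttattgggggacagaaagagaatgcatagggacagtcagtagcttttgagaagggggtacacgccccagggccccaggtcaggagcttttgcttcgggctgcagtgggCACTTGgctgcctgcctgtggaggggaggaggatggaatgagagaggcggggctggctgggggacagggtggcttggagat
Pgam2 held 5 E-boxes, Gbe1 held 2, and Ugp2, Gys1 and Eno3 held 1 each. Such a match is a description of letters only: 66.2% of the 32851 promoters of the table hold an E-box in the same 250 bases, and 23 of the 35 members in the table (65.7%) did. ACGTG, the core of the hypoxia response element, searched on both strands and able to lie within an E-box, was found for 14 of 35 members (40.0%), against 16.6% of all promoters, with Ugp2 among those that hold it. These member counts take the first listed start of each gene, whereas the shares of all promoters take every listed start. ACGTG was also found at later starts of Aldoa and Pkm. The letters GTAAACA, a FOXO motif searched on both strands, was found at the first listed start of 0 of 35 members, against 3.17% of all promoters, and at a later start of Aldoc. Ugp2 has 2 starts in the table, of which the first listed is shown, and Slc2a4 was not in it.

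Ratios of the muscle-enriched to the other paralogue within a library do not depend on scaling between libraries. Of 15 such pairs of TPM, 3 separated the groups in gastrocnemius, all lower in cachectic mice, whereas 48.8% of all pairs of tested genes did so; the members' share of separated pairs was thus below the background. Pgam2 exceeded Pgam1 by 77.3, 153 and 81.1 times in cachectic mice, against 213, 272 and 158 times in normal mice. Eno3 exceeded Eno2 by 1173, 2619 and 1301 times in cachectic mice, against 3925, 6437 and 3631 times in normal mice. The ratio of Pfkfb1 to Pfkfb4 was 1.58, 1.40 and 1.68 in cachectic mice, against 1.83, 2.55 and 2.79 in normal mice.

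The log2 differences were -1.08, -1.51 and -0.61 for these pairs, each at the smallest p that 3 mice against 3 allow (two-sided exact permutation p = 0.1, adjusted over 15 pairs p = 0.5). So none passed 0.05, nor could it. Eno3 against Eno1 stood at 31.7, 54.7 and 33.2 times in cachectic mice and 47.8, 47.2 and 44.1 times in normal mice, with cachectic mouse 2 above all normal mice. Without cachectic mouse 2, 8 pairs separated the groups, and without normal mouse 3, 5 pairs did. Leaving out a library can only add separated pairs, and the share of all gene pairs was not counted for these settings. Ldha against Ldhb spread within groups, at 5.27, 15.8 and 3.50 times in cachectic mice and 13.2, 17.2 and 4.23 times in normal mice.

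**Figure D4:**
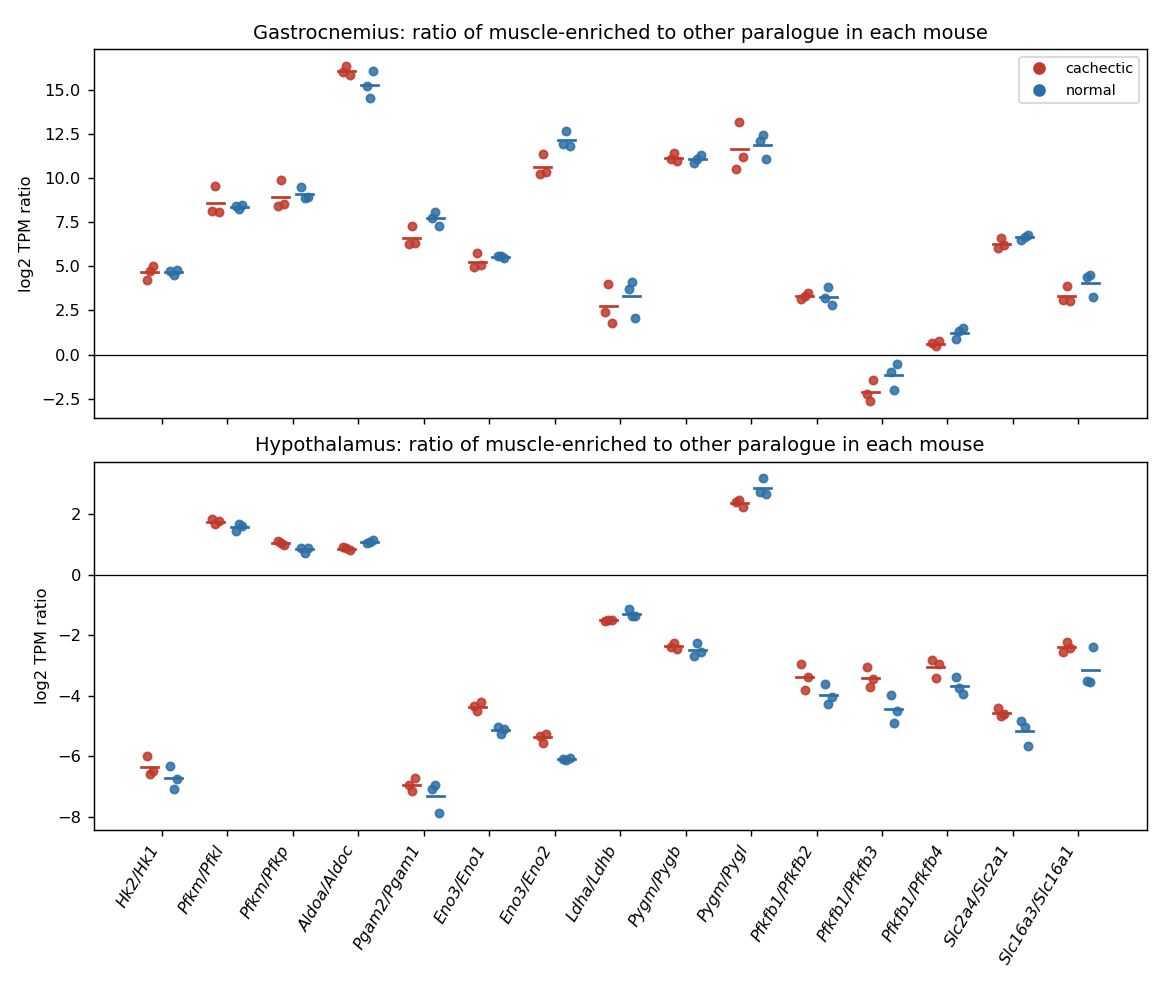
Log2 ratio of the TPM of the muscle-enriched to the other paralogue (vertical) for 15 pairs in each mouse, gastrocnemius above and hypothalamus below, with cachectic mice in red, normal mice in blue and bars at the means of 3 mice. In gastrocnemius only Pgam2/Pgam1, Eno3/Eno2 and Pfkfb1/Pfkfb4 separate the groups, and in hypothalamus 8 pairs do.

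In the hypothalamus both glucose carriers of the set rose, as did 3 enzymes, while 2 enzymes fell. Of the 36 genes, 5 rose, namely Slc2a4, Slc2a1, Eno3, Pygl and Aldoc, and 2 fell, Pfkfb3 and Ldha. Over all 17961 genes tested, 3.94% were called higher and 4.83% lower, 8.77% in all, against 13.9% and 5.56% of the members. The median log2 change of the members was -0.0070, against -0.0032 over all genes tested. Of the 7 calls, Slc2a4 alone held under all 16 alternatives, and Slc2a1 was lost in 1, a fit of all 12 libraries together. In CPM the groups did not overlap for 7 members with cachectic mice higher (14.7% of all genes) and 4 lower (15.6%), and in TPM for 7 higher (10.5%) and 6 lower (15.6%). With library totals 6 members were called higher and 1 lower, and of all genes 882 higher and 647 lower. The number of calls fell to 3 without cachectic mouse 1 and to 4 without cachectic mouse 3.

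Slc2a1 codes for GLUT1, which brings glucose across the blood-brain barrier and into glia, and had 137, 127 and 132 CPM in cachectic mice, against 87.7, 84.5 and 99.4 CPM in normal mice. Slc2a4, coding for GLUT4, which some hypothalamic neurons carry, had 5.19, 4.07 and 4.25 CPM in cachectic mice, against 2.51, 1.89 and 1.82 CPM in normal mice. The groups overlapped for neither Slc2a1 nor Slc2a4. Slc2a3, a glucose carrier outside the set, was not called (edgeR adjusted p = 0.952). It stood at 108.4 to 116.4 CPM in cachectic mice and 105.5 to 118.5 CPM in normal mice. Slc2a1 rose by 0.54 ± 0.06 (SE, edgeR adjusted p = 0.00102) and Slc2a4 by 1.12 ± 0.17 (edgeR adjusted p = 0.00426) on the log2 scale. Of the endothelial markers beside Slc2a1, 1 of 7 rose and 1 fell, and their summed level was 103 to 120 CPM in cachectic mice and 92.1 to 113 CPM in normal mice. The erythroid markers summed to 561 to 703 CPM in cachectic mice and 242 to 384 CPM in normal mice. Their part in the rise of Slc2a1 and Slc2a4 was not tested.

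Among the enzymes, Aldoc, an aldolase of astrocytes, had 960, 905 and 920 CPM in cachectic mice, against 708, 795 and 783 CPM in normal mice, and rose by 0.29 ± 0.06 on the log2 scale (SE, edgeR adjusted p = 0.0146). The astrocyte markers around it did not rise: 2 of 6 fell, and their sum was 2093 to 2339 CPM in cachectic mice and 2336 to 2536 CPM in normal mice. Eno3 had 8.98, 8.97 and 9.09 CPM in cachectic mice, against 6.17, 7.30 and 6.54 CPM in normal mice, and rose by 0.43 ± 0.10 (SE, edgeR adjusted p = 0.0272). Pygl had 8.84, 8.69 and 7.95 CPM in cachectic mice, against 6.03, 6.18 and 6.97 CPM in normal mice, and rose by 0.41 ± 0.11 (SE, edgeR adjusted p = 0.0399). Each of these groups was separate, yet the Eno3 call was lost in 7 alternatives, the Pygl call in 9 and the Aldoc call in 4. Neutrophil markers also rose in the hypothalamus, 4 of 6 tested, with sums of 12.3 to 94.7 CPM in cachectic mice, against 4.71 to 6.10 CPM in normal mice. Of 9 macrophage and microglia markers 2 rose, and their sum was 149 to 183 CPM in cachectic mice and 158 to 168 CPM in normal mice. The part of these cells in the rises was not tested.

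Pfkfb3, whose product favours the making of fructose 2,6-bisphosphate, had 33.6, 36.2 and 37.6 CPM in cachectic mice, against 45.0, 51.3 and 45.2 CPM in normal mice, and fell by 0.40 ± 0.07 on the log2 scale (SE, edgeR adjusted p = 0.00829). Its call was lost in 3 alternatives, both TPM settings (limma adjusted p of up to 0.0595) and the fit of all 12 libraries (edgeR adjusted p = 0.776). Ldha had 144, 146 and 140 CPM in cachectic mice, against 163, 161 and 159 CPM in normal mice. Its fall of 0.17 ± 0.04 (SE, edgeR adjusted p = 0.0389) was lost in 13 of 16 alternatives, among them the leaving out of any 1 of the 6 libraries (adjusted p of up to 0.145). Oligodendrocyte markers moved with these genes: 5 of 6 fell, and their sum was 2975 to 3247 CPM in cachectic mice, against 4456 to 4974 CPM in normal mice. Their part in the falls was not tested.

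The other 29 genes were not called in the hypothalamus. Those of glycogen synthesis, which all rose in muscle, overlapped here in CPM. Ugp2 had 65.9, 75.8 and 72.9 CPM in cachectic mice and 72.4, 75.9 and 83.0 CPM in normal mice. Gys1 had 20.2, 18.3 and 18.6 CPM in cachectic mice and 18.7, 20.95 and 18.9 CPM in normal mice. In TPM Gys1 was lower in each cachectic mouse, at 7.47 to 8.26 TPM, against 8.75 to 9.01 TPM in normal mice. Gbe1 had 11.95, 10.99 and 12.3 CPM in cachectic mice and 11.3, 11.1 and 11.7 CPM in normal mice. The phosphorylase kinase subunits, which fell in muscle, overlapped in CPM too. Phka1 had 46.3, 42.2 and 48.4 CPM in cachectic mice and 38.6, 36.3 and 42.3 CPM in normal mice. In TPM Phka1 was higher in each cachectic mouse, at 7.95 to 8.48 TPM, against 6.70 to 7.83 TPM in normal mice. It was called higher without a low-count filter (edgeR adjusted p = 0.0195). Phkb had 37.3, 43.8 and 44.3 CPM in cachectic mice and 42.7, 46.5 and 46.3 CPM in normal mice. Phkg1 had 9.77, 11.1 and 11.6 CPM in cachectic mice and 13.4, 11.6 and 11.3 CPM in normal mice.

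Of the phosphorylases, Pygb, the main form of brain, had 229, 242 and 235 CPM in cachectic mice and 249, 245 and 239 CPM in normal mice, and Pygm had 42.98, 42.1 and 38.3 CPM in cachectic mice and 27.8, 44.97 and 39.1 CPM in normal mice. Tpi1 had 327, 319 and 309 CPM in cachectic mice and 314, 331 and 338 CPM in normal mice, Pgk1 had 268, 275 and 260 CPM in cachectic mice and 243, 265 and 291 CPM in normal mice, and Pkm had 1168, 1097 and 1114 CPM in cachectic mice and 1124, 1223 and 1161 CPM in normal mice. All of these overlapped in CPM. In TPM Pygb was lower in each cachectic mouse, at 97.1 to 98.6 TPM, against 106.6 to 110.7 TPM in normal mice. Gpi1 had 817, 686 and 746 CPM in cachectic mice and 736, 811 and 752 CPM in normal mice. Pfkl had 97.0, 107 and 97.95 CPM in cachectic mice and 109, 102 and 109 CPM in normal mice. Both were thus without separation.

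The enolases of brain lay lower in each cachectic mouse without being called. Eno1 had 368, 351 and 345 CPM in cachectic mice and 376, 432 and 416 CPM in normal mice (edgeR adjusted p = 0.0599), and Eno2 had 882, 883 and 869 CPM in cachectic mice and 940, 955 and 978 CPM in normal mice (edgeR adjusted p = 0.130). Eno1 was called lower in 3 of 16 alternatives, among them DESeq2 (adjusted p = 0.0195), and Eno2 in 0. Pfkm lay higher in each cachectic mouse, at 320, 302 and 307 CPM in cachectic mice and 264, 285 and 281 CPM in normal mice (edgeR adjusted p = 0.0700). It was called higher in 3 of 16 alternatives, among them DESeq2 (adjusted p = 0.0259). Pfkfb1 was scarce, at 1.25, 0.793 and 0.991 CPM in cachectic mice and 0.746, 0.532 and 0.581 CPM in normal mice (edgeR adjusted p = 0.125), and Pgam2 had 1.32, 1.15 and 1.53 CPM in cachectic mice and 1.19, 1.39 and 0.726 CPM in normal mice.

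The members that follow overlapped between the groups. Aldoa had 1389, 1287 and 1282 CPM in cachectic mice and 1240, 1340 and 1376 CPM in normal mice, Ldhb had 337, 325 and 318 CPM in cachectic mice and 278, 330 and 331 CPM in normal mice, and Pgam1 had 418, 423 and 409 CPM in cachectic mice and 398, 430 and 434 CPM in normal mice. Pfkp ran between 171 and 183 CPM in cachectic mice and between 162 and 194 CPM in normal mice, Pfkfb2 had 24.6, 27.5 and 26.02 CPM in cachectic mice and 25.1, 24.4 and 23.6 CPM in normal mice, and Pfkfb4 had 16.4, 17.7 and 15.96 CPM in cachectic mice and 17.7, 14.4 and 16.1 CPM in normal mice. Gapdh ran between 1664 and 1939 CPM in cachectic mice and between 1795 and 1896 CPM in normal mice. Hk1, the main hexokinase of brain, ran between 320 and 338 CPM in cachectic mice and between 326 and 368 CPM in normal mice, and Hk2 between 4.54 and 4.97 CPM in cachectic mice and between 3.63 and 5.12 CPM in normal mice. Of the lactate carriers, Slc16a1 had 27.6, 32.3 and 25.2 CPM in cachectic mice and 38.0, 37.1 and 31.0 CPM in normal mice (edgeR adjusted p = 0.0749), and Slc16a3 ran between 2.08 and 2.45 CPM in cachectic mice and between 1.74 and 2.40 CPM in normal mice. Slc16a1 was called lower in 5 of 16 alternatives, among them DESeq2 (adjusted p = 0.0269).

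**Figure D5:**
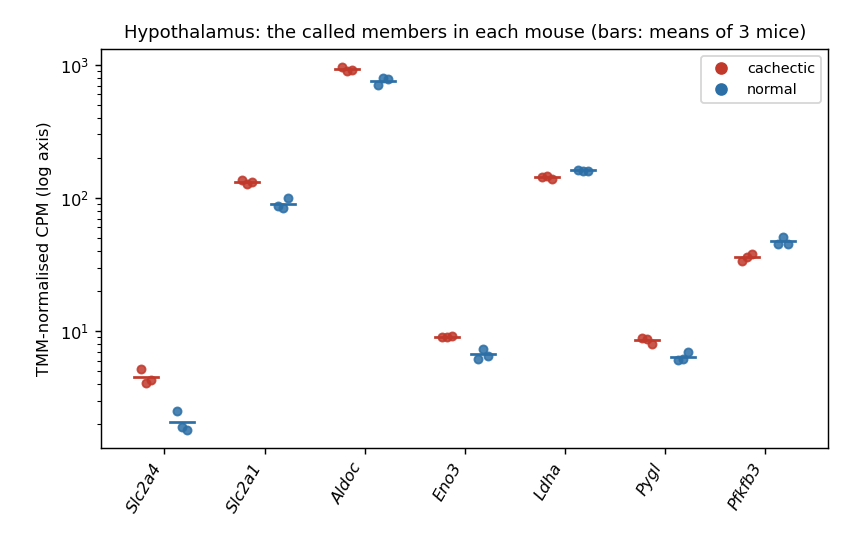
TMM-normalised CPM (log axis) of the 7 called genes in each hypothalamus, in pathway order, with cachectic mice in red, normal mice in blue and bars at the means of 3 mice. The cachectic points of Slc2a4 (4.07 to 5.19 CPM) lie above the normal ones (1.82 to 2.51 CPM), and the groups of all 7 genes are separate.

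Of the 15 paralogue ratios, 8 separated the groups in the hypothalamus, 5 higher and 3 lower, against 27.2% of all pairs of tested genes. Several of the 15 pairs share a gene, such as Eno3/Eno1 and Eno3/Eno2, so they are not independent results. Eno3 stood at 0.0491, 0.0440 and 0.0538 of Eno1 in cachectic mice, against 0.0305, 0.0262 and 0.0293 in normal mice, a log2 difference of 0.77. Slc2a4 stood at 0.0471, 0.0394 and 0.0411 of Slc2a1 in cachectic mice, against 0.0354, 0.0303 and 0.0198 in normal mice, a log2 difference of 0.62. Aldoa exceeded Aldoc by 1.88, 1.82 and 1.75 times in cachectic mice, against 2.05, 2.08 and 2.19 times in normal mice, a log2 difference of -0.21. Ldha stood at 0.343, 0.358 and 0.351 of Ldhb in cachectic mice, against 0.457, 0.389 and 0.386 in normal mice, a log2 difference of -0.22. The other separated pairs were Pfkm/Pfkp, Eno3/Eno2 and Pfkfb1/Pfkfb3, higher in cachectic mice, and Pygm/Pygl, lower. Pfkfb1 was scarce, at 0.73 to 1.01 TPM in cachectic mice and 0.44 to 0.73 TPM in normal mice. Each of the 8 had the smallest possible p (two-sided exact permutation p = 0.1, adjusted over 15 pairs p = 0.1875), so none passed 0.05.

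Whether a gene's change itself differed between the tissues was tested as an interaction over all 12 libraries. Of 18746 genes tested, 12.4% had a change that was higher in gastrocnemius than in hypothalamus and 14.0% one that was lower, 26.4% in all, and of the 36 members 4 were higher and 15 lower. With library totals 5 members were higher and 11 lower, and of all genes 3238 higher and 1634 lower. The 4 were Ugp2 (1.70 ± 0.21 log2, SE, edgeR adjusted p = 0.000131), Gbe1 (1.25 ± 0.19, edgeR adjusted p = 0.000397), Gys1 (0.85 ± 0.16, edgeR adjusted p = 0.00191) and Gpi1 (0.80 ± 0.24, edgeR adjusted p = 0.0266). The lower changes were led by Pgam2 (-1.86 ± 0.31, edgeR adjusted p = 0.000843), Phka1 (-1.70 ± 0.22, edgeR adjusted p = 0.000150), Phkg1 (-1.67 ± 0.57, edgeR adjusted p = 0.0444) and Eno3 (-1.39 ± 0.25, edgeR adjusted p = 0.00144). The Phkg1 call was lost in 13 of 21 alternatives, among them DESeq2 (adjusted p = 0.0560), both TPM settings and leaving out any 1 of 10 of the 12 libraries (edgeR adjusted p of up to 0.0935).

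Slc2a4 also differed, by -0.88 ± 0.21 (edgeR adjusted p = 0.00707), as it rose in hypothalamus and was not called in muscle; with TPM this difference was not called (limma adjusted p of up to 0.322). The titles name the same mice for both tissues, and with the mouse as a block 3 members were higher and 12 lower. Of all genes 1792 were then higher, against 2323 without the block. The count of all genes lower with the block is not given here. That block lost the calls of Gpi1 (adjusted p = 0.0550), Pfkl (adjusted p = 0.0858), Eno1 (adjusted p = 0.0594) and Pfkfb2 (adjusted p = 0.0575). Over all 21 alternatives the Pfkl call was lost in 17 and the Pfkfb2 call in 14. Ugp2, Gbe1, Gys1, Tpi1, Pgam2, Eno3, Pkm, Phka1 and Phkb, 9 of the 19, held under all 21 alternatives.

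Genes around the pathway were read from companion lists, whose counts in gastrocnemius stand beside the 19.6% of all genes called higher and 18.3% called lower. Of 22 tested genes of glycogen handling in gastrocnemius other than the members, 7 rose and 8 fell. Gyg, glycogenin, which primes new glycogen, had 707, 814 and 702 CPM in cachectic mice, against 321, 337 and 334 CPM in normal mice, and rose by 1.16 ± 0.14 on the log2 scale (SE, edgeR adjusted p = 0.000713). Gaa, the lysosomal enzyme that degrades glycogen, had 604, 484 and 448 CPM in cachectic mice, against 134, 175 and 146 CPM in normal mice, and rose by 1.75 ± 0.17 (edgeR adjusted p = 0.000404). Phkg2, the gamma subunit of phosphorylase kinase known from liver, had 17.3, 18.3 and 15.3 CPM in cachectic mice, against 9.31, 8.50 and 8.32 CPM in normal mice, and rose by 0.96 ± 0.13 (edgeR adjusted p = 0.00106), while Phkg1 fell. Pgm1, phosphoglucomutase, which links glucose 6-phosphate and glycogen in both directions, had 168, 394 and 209 CPM in cachectic mice, against 1215, 1260 and 984 CPM in normal mice, and fell by 2.17 ± 0.31 (edgeR adjusted p = 0.00155). Calm2, a calmodulin gene, had 28.1, 42.4 and 36.6 CPM in cachectic mice, against 125, 135 and 117 CPM in normal mice, and fell by 1.82 ± 0.17 (edgeR adjusted p = 0.000313).

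Of 15 other tested genes of glycolysis and gluconeogenesis in gastrocnemius, 2 rose and 7 fell. Bpgm, which makes 2,3-bisphosphoglycerate, had 20.3, 40.9 and 33.1 CPM in cachectic mice, against 84.4, 92.5 and 77.4 CPM in normal mice. Ldhd, the D-lactate dehydrogenase of mitochondria, had 8.53, 9.80 and 11.6 CPM in cachectic mice, against 24.7, 23.6 and 28.4 CPM in normal mice. Both fell, Bpgm by 1.43 ± 0.24 (SE, edgeR adjusted p = 0.00261) and Ldhd by 1.36 ± 0.15 (edgeR adjusted p = 0.000572) on the log2 scale. Pck1, phosphoenolpyruvate carboxykinase, also fell, by 1.61 ± 0.19 (edgeR adjusted p = 0.000690), and Adpgk, the ADP-dependent glucokinase, rose by 0.67 ± 0.14 (edgeR adjusted p = 0.00626). Pck1 is abundant in fat, whose markers also fell in these muscles, and their part in its fall was not tested.

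Of 15 other transport genes tested in gastrocnemius, 5 rose and 4 fell. Tbc1d4 and Aspscr1 hold GLUT4 inside the cell until insulin acts. Tbc1d4 had 60.4, 89.3 and 67.1 CPM in cachectic mice, against 27.5, 25.1 and 31.2 CPM in normal mice, and Aspscr1 had 49.8, 46.9 and 38.4 CPM in cachectic mice, against 15.8, 19.1 and 15.8 CPM in normal mice. Both rose, Tbc1d4 by 1.37 ± 0.17 (SE, edgeR adjusted p = 0.000854) and Aspscr1 by 1.41 ± 0.15 (edgeR adjusted p = 0.000440). Slc37a4, the glucose 6-phosphate carrier of the endoplasmic reticulum, had 14.9, 28.5 and 18.5 CPM in cachectic mice, against 166, 152 and 99.2 CPM in normal mice, and fell by 2.76 ± 0.29 (edgeR adjusted p = 0.000444). Slc16a7, coding for the lactate carrier MCT2, had 0.275, 0.271 and 0.239 CPM in cachectic mice, against 0.913, 0.806 and 1.28 CPM in normal mice, and fell by 1.92 ± 0.32 (edgeR adjusted p = 0.00285).

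Of 13 tested genes of the pentose phosphate and hexosamine pathways in gastrocnemius, 2 rose and 1 fell. Pgd, the second dehydrogenase of the pentose phosphate pathway, rose by 0.70 ± 0.14 on the log2 scale (SE, edgeR adjusted p = 0.00589) and Pgls, the lactonase before it, by 0.42 ± 0.12 (edgeR adjusted p = 0.0224). Gnpnat1, of the hexosamine pathway, fell by 0.55 ± 0.15 (edgeR adjusted p = 0.0212), but its change was 0.06 with TPM. The calls of Pgls and Gnpnat1 were lost without cachectic mouse 1 or normal mouse 1, and that of Pgls also without normal mouse 2 or 3. Of 23 tested regulators, 4 rose and 4 fell. Prkag3, the AMPK gamma subunit of fast glycolytic muscle, had 19.4, 54.3 and 17.8 CPM in cachectic mice, against 248, 190 and 148 CPM in normal mice, and fell by 2.68 ± 0.44 (edgeR adjusted p = 0.00250).

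Egln3, a prolyl hydroxylase that acts on hypoxia-inducible factors, had 246, 109 and 237 CPM in cachectic mice, against 31.5, 32.9 and 62.9 CPM in normal mice, and rose by 2.22 ± 0.37 on the log2 scale (SE, edgeR adjusted p = 0.00292). Arnt, the constant partner of those factors, rose by 1.02 ± 0.13 (edgeR adjusted p = 0.00103) and Myc by 1.52 ± 0.19 (edgeR adjusted p = 0.000852). Hif1a itself was not called, at 21.2, 19.1 and 18.9 CPM in cachectic mice and 19.2, 17.8 and 17.3 CPM in normal mice. None of the 4 adult myosin heavy chains was called. Myh4 had 20861, 49986 and 14053 CPM in cachectic mice, against 47912, 61871 and 41120 CPM in normal mice (edgeR adjusted p = 0.188).

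Myh1, the IIX form, had 2808, 2289 and 2798 CPM in cachectic mice and 1774, 2169 and 3589 CPM in normal mice. Myh2, the IIA form, had 4958, 1184 and 3621 CPM in cachectic mice and 1610, 1232 and 3309 CPM in normal mice. The slow form Myh7 had 1860, 251 and 721 CPM in cachectic mice, against 254, 196 and 379 CPM in normal mice (edgeR adjusted p = 0.0513). Cachectic mouse 2 was the highest for Myh4 and the lowest for Myh1, Myh2 and Myh7 in its group, and of the 36 members it was the highest in its group for 18 and the lowest for 16. Pvalb, the calcium buffer of fast fibres, was the 1 of 5 IIB markers that fell, at 599 to 2259 CPM in cachectic mice, against 7463 to 9909 CPM in normal mice (edgeR adjusted p = 0.00301). The part of fibre makeup in the members' changes was not tested.

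In the hypothalamus the companion lists held 12 calls, beside 8.77% of all genes called there (3.94% higher and 4.83% lower). Of 22 regulators tested, 3 rose, among them Txnip, a thioredoxin-binding protein that restrains glucose uptake, with 43.9, 32.2 and 37.5 CPM in cachectic mice, against 19.8, 17.1 and 16.5 CPM in normal mice. It rose by 1.09 ± 0.11 on the log2 scale (SE, edgeR adjusted p = 0.000531). Epas1, a hypoxia-inducible factor, rose by 0.18 ± 0.05 (edgeR adjusted p = 0.0375), whereas Hif1a had 99.5, 111 and 108 CPM in cachectic mice and 101, 112 and 111 CPM in normal mice and was not called. Of 23 other glycogen genes, 3 rose and 1 fell: Pgm1 rose by 0.41 ± 0.05 (edgeR adjusted p = 0.00128), Ppp1r3f by 0.32 ± 0.06 (edgeR adjusted p = 0.0132) and Epm2a by 0.22 ± 0.05 (edgeR adjusted p = 0.0217), and Gyg fell by 0.29 ± 0.06 (edgeR adjusted p = 0.0197).

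Pgm1 thus fell in muscle and rose in hypothalamus, and its change was lower in muscle by a log2 difference of -2.59 ± 0.34 (SE, edgeR adjusted p = 0.000162). Gyg rose in muscle and fell in hypothalamus, and its change was 1.43 ± 0.13 higher in muscle on the log2 scale (SE, edgeR adjusted p = 1.97e-05). Each of the 12 hypothalamic calls was lost under at least 1 alternative, 9 of them without 1 library. Of 16 other transport genes in the hypothalamus, Slc2a9, a urate carrier, rose by 0.80 ± 0.20 on the log2 scale (SE, edgeR adjusted p = 0.0331) and Slc37a4 by 0.33 ± 0.08 (edgeR adjusted p = 0.0338). Of 17 other genes of glycolysis and gluconeogenesis, Pck2 rose by 0.26 ± 0.07 (edgeR adjusted p = 0.0361) and Tigar, which lowers fructose 2,6-bisphosphate, fell by 0.34 ± 0.09 (edgeR adjusted p = 0.0361). Of 13 genes of the pentose phosphate and hexosamine pathways, Rpe alone was called, and fell by 0.32 ± 0.09 (edgeR adjusted p = 0.0408).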

How the data were processed

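The authors deposited a gene table for each library with expected counts (estimated fragments a gene) and TPM (a transcript level per length, relative to the library), per the file headers. RNA was extracted with TRIzol and sequenced from both ends in directional libraries, per the labels' protocols. Trim Galore 0.6.6, STAR 2.7.9a, RSEM 1.3.3 and GRCm38 are named in the submitters' processing notes; the annotation release and strand setting are not given in the sources used here. Gene identifiers were named with GENCODE M21 (52135 of 55416, holding 99.648% of counts); Aldoa is the larger of 2 identifiers with that name.

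Expected counts were rounded and tested in R 4.3.3 with edgeR 4.0.16 (filterByExpr, TMM, quasi-likelihood, Benjamini-Hochberg over all genes tested, threshold 0.05), each tissue alone and, for the interaction, together; alternatives were DESeq2 1.42.0, limma 3.58.1 on log2 TPM (pseudocounts of 0.5 and 0.1, mean TPM of at least 0.5), other scalings and filters, summed copies, blocks, and leaving out each library. The scripts were tested on simulated data. CPM are from the TMM-scaled libraries. Paralogue ratios used TPM and an exact permutation test. All 36 members are reported, with values in every mouse for those called in either tissue and for both partners of a pair with a called partner; of each companion list up to 4 called genes with the smallest p are named, except 1 that is not reported here. The members and lists were chosen with earlier results of these data known. Copies are annotated transcripts of other genes with at least 95% identity over at least 200 bases and 50% of the copy. The titles name the same mouse for both tissues, which is the pairing behind the mouse block; deviations of same-mouse libraries correlated at -0.103 to 0.167. The labels name separate mice, and no 2 libraries of a group were alike within sampling noise.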

Additional observations from a re-analysis of the deposited data

Results flagged for a closer look

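For 19 of the 36 genes the change in cachectic gastrocnemius differed from that in cachectic hypothalamus by the interaction test over all 12 libraries; values are gastrocnemius change minus hypothalamus change on the log2 scale. In glycogen synthesis the differences were 1.70 for Ugp2, 1.25 for Gbe1 and 0.85 for Gys1. In glycogen breakdown they were -1.70 for Phka1, -1.67 for Phkg1, -1.18 for Phkb and -0.80 for Pygb. In upper glycolysis they were 0.80 for Gpi1, -1.26 for Tpi1 and -0.50 for Pfkl. In lower glycolysis they were -1.86 for Pgam2, -1.39 for Eno3, -1.13 for Pkm, -0.88 for Pgk1 and -0.44 for Eno1. For Ldha the difference was -0.70, for Slc2a4 -0.88, for Pfkfb1 -1.28 and for Pfkfb2 -0.87. With the mouse as a block, 15 of these calls held, and those of Gpi1, Pfkl, Eno1 and Pfkfb2 did not. The call of Pygb was lost with TPM, where the difference was -0.04 with a pseudocount of 0.5 (limma adjusted p = 0.926). That of Phkg1 was lost in 13 of 21 alternatives, that of Pfkfb2 in 14 and that of Pfkl in 17.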

How the results depend on the processing

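No called member changed sign under any alternative; the companion gene Gnpnat1 did in gastrocnemius, to 0.0630 and 0.0691 with limma on TPM plus 0.5 and 0.1. With TPM plus 0.5, 8 members were called lower in gastrocnemius, and 8 with 0.1; of all genes 4249 and 4276 were called higher and 799 and 802 lower. Those 2 settings called 3 and 3 members in hypothalamus, 3 and 3 of them higher and 0 and 0 lower, with 172 and 190 of all genes higher and 193 and 210 lower. In the interaction they called 12 and 12 members, 6 and 6 of them lower, with 4035 and 3976 of all genes higher and 750 and 818 lower. Scaling by library totals called 1662 genes lower in gastrocnemius, 1634 lower in the interaction and 1 member lower in hypothalamus; at least 1 CPM in 3 libraries also left 1 there, and DESeq2 gave 4. Without a low-count filter 1307 genes were higher in hypothalamus. All 12 libraries in 1 fit gave 3984 genes lower in gastrocnemius, and in hypothalamus 1 member (1 higher, 0 lower) with 108 genes higher and 54 lower; the tissues then share 1 estimate of the spread. The other causes were not tested.

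Leaving out 1 library at a time called 14 to 19 members in gastrocnemius (3 to 5 higher, 11 to 14 lower; of all genes 1768 to 2779 higher and 1779 to 2671 lower), 3 to 6 in hypothalamus (2 to 4 higher, 1 to 2 lower; of all genes 283 to 543 higher and 293 to 725 lower) and 14 to 23 in the interaction (3 to 6 higher, 11 to 17 lower; of all genes 1642 to 2734 higher and 2003 to 3053 lower). Counts of all genes moved by over 1.5 times without normal mouse 1 in gastrocnemius (1768 higher) and without cachectic mouse 1, 2 or 3 or normal mouse 2 in hypothalamus (293 to 498 lower). Leaving out 1 library separated 3 to 8 paralogue pairs in gastrocnemius and 8 to 11 in hypothalamus. Such a step can only add separated pairs, and the share of all gene pairs was not counted for it. Within a tissue, equal numbers name different mice, so the numbers were not taken as pairs. Deviations of equal numbers correlated at -0.057, 0.182 and 0.259 in gastrocnemius and -0.103, -0.0255 and 0.00013 in hypothalamus. Those of unequal numbers correlated at -0.249 to 0.1 in gastrocnemius and -0.0752 to 0.0901 in hypothalamus. The values 0.182 and 0.259 were thus the highest in gastrocnemius, and their source was not tested. A replicate block on the numbers called 22 members in gastrocnemius, with 2887 of all genes higher and 2834 lower. In hypothalamus it called 5, 3 of them higher, with 506 of all genes higher and 605 lower. For 7 gastrocnemius paralogue pairs the differences between equal numbers all had 1 sign. How many of all gene pairs do so was not counted. Aldoc, at 0.355 to 1.21 CPM in normal muscle, was not called in the interaction (edgeR adjusted p = 0.0800) but was with DESeq2 (adjusted p = 0.00671), without a low-count filter (edgeR adjusted p = 0.0478) and without normal muscle 3 (edgeR adjusted p = 0.00638); whether depth limits such low genes was not tested.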
